A study of Mus musculus with 768 samples.

Results

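The Klra genes code for the Ly49 receptors, the lectin-like receptors with which mouse NK cells read MHC class I on other cells. The 10 symbols described here, Klra1, Klra3, Klra4, Klra5, Klra6, Klra7, Klra8, Klra9, Klra17 and Klra23, were taken by name from 24490 deposited gene entries, as a named gene family and not by a threshold on their values. They were read in 726 of 768 sorted single cells, 360 of them WT and the rest PD-1-/- NK cells from MTAP1A tumors, once wells with fewer than 1000 or more than 3500 genes above 0 had been left out. MTAP1A is a fibrosarcoma line from a Tap1-deficient mouse, with low MHC class I, and it was grown in age-matched adult male mice of the C57BL/6 strain. The WT hosts had normal Pdcd1, the gene of PD-1, and the PD-1-/- hosts carried a germline deletion of a stretch of Pdcd1 in every cell, with no other allele or agent named for either group. For each genotype the tumors of 3 mice were pooled and sorted onto 1 plate. Genotype, pool and plate therefore cannot be told apart, each genotype is a single sample, and no test was made between the genotypes. Shares of cells are followed by their exact binomial (Clopper-Pearson) 95% interval in square brackets, which covers counting error only.

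Most Ly49 receptors inhibit the NK cell. Ly49A (Klra1), Ly49C (Klra3), Ly49E (Klra5), Ly49F (Klra6), Ly49G (Klra7), Ly49I (Klra9) and Ly49Q (Klra17) carry an inhibitory tyrosine motif, the ITIM, near the start of the protein. Ly49D (Klra4) and Ly49H (Klra8) lack this tyrosine and signal through the adaptor DAP12, the product of Tyrobp. Ly49C and Ly49I bind H2-Kb, a class I molecule of C57BL/6 mice themselves, whereas the best known ligand of Ly49A and Ly49G is H2-Dd, which this strain lacks. Each NK cell turns on its own set of these genes, so that neighboring NK cells differ in the receptors they carry. Klra23 is the symbol of Ly49W, an activating receptor described in other mouse strains.

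The first 60 coding bases show both how alike the members are and where the inhibitory and activating members part. They are given 5′ to 3′ from GENCODE vM21 transcripts, build GRCm38, minus strand of chromosome 6, each within 1 coding exon, and the capitals mark codon 8, the codon of the ITIM tyrosine. Klra3 stands at chr6:130335740-130335799, Klra9 at chr6:130191242-130191301, Klra1 at chr6:130380603-130380662, Klra7 at chr6:130231558-130231617, Klra8 at chr6:130128101-130128160 and Klra4 at chr6:130065243-130065302.
Klra3: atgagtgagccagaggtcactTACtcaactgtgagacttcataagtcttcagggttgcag
Klra9: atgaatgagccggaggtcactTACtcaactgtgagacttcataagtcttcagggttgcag
Klra1: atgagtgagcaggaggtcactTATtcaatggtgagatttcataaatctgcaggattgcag
Klra7: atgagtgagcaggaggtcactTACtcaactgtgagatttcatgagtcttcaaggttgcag
Klra8: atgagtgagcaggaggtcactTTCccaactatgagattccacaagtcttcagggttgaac
Klra4: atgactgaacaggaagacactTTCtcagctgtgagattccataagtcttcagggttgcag
Codon 8 was a tyrosine codon in 7 of the 9 members with a coding sequence there and a phenylalanine codon in the other 2, Klra4 and Klra8. Over the whole coding sequence, the 36 pairs of these 9 members were between 76.8% and 95.9% identical, with a median of 80.9%. Klra3 and Klra9 were the closest pair. Of the stretches of 40 bases in a transcript, 57.2% of those of Klra9 and 57.4% of those of Klra8 were found in no other Klra gene, against 69.6% for Klra3, 84.6% for Klra7, 95.3% for Klra1 and 95.8% for Klra5. In RefSeq (GRCm38.p6) Klra23 was not placed in the Klra cluster of chromosome 6, and no sequence is shown for it.

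Reads from such close relatives can be split or assigned differently by different ways of counting, so the depth behind each entry was looked at first. The authors deposited RPKM, reads scaled to transcript length and library size, and the RPKM of 1 read showed how many bases of an entry had been counted. For Klra1, Klra3, Klra5, Klra7 and Klra9 the estimated counted length was 1210, 1216, 1155, 900 and 1198 bases. Their GENCODE transcripts have 1668, 984, 1147, 1042 and 1123 bases, so the match was loose for Klra1 and Klra3. The length for Klra7 is approximate, since only 9.80% of its values were whole multiples of the value taken for 1 read. For Klra23 the estimated counted length was 80.3 bases, for Klra8 31.1 and for Klra6 22.1. Of the cells with the transcript, 10 or more reads were held by 89.6% for Klra7, 88.4% for Klra9, 85.2% for Klra1, 84.6% for Klra3 and 81.2% for Klra23, whereas cells with Klra8 held a median of 1 read and never more than 9. The 5 members of long counted length therefore carry most of what follows, and detection of Klra8 and Klra6 is limited by depth. Klra4 was listed at 0 in all 768 wells, as was Klra15. Of the stretches of 40 bases, 93.6% of those of Klra6 and 91.8% of those of Klra4 were found in no other Klra gene, a higher share than for Klra9 with its long counted length, and the cause of the short lengths and of the 0 values was not tested.

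The sorted cells had the transcripts of NK cells. Ncr1 was present in 90.8% (WT) and 91.8% (PD-1-/-) of cells, Klrb1c in 96.1% and 97%, and each of 8 NK markers in 55.2% or more of either genotype. Of 10 T cell markers, the most widespread reached 16.9% of cells, but 65 WT and 83 PD-1-/- cells held a transcript of Cd3d, Cd3e or Cd3g, so values without these cells are given where they matter. Single markers of myeloid, plasmacytoid dendritic, neutrophil, B and fibrosarcoma cells reached at most 6.39%. Median depth was 268334 recovered reads in WT and 284533 in PD-1-/- cells, with a median of 2264.5 and 2262.5 detected genes. Pdcd1 itself was present in 9 WT and 47 PD-1-/- cells. The deposited value sums the whole gene and does not separate the deleted stretch, so it does not check the genotype labels.

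The inhibitory members Klra7, Klra9 and Klra3 were, with Klra23, the most widespread of the 10 members. Klra7 was present in 57.8% [52.5–62.9] of WT cells and, on the other plate, in 47.8% [42.6–53.1] of PD-1-/- cells. Klra9 followed with 47.2% [42–52.5] and 40.4% [35.4–45.7], and Klra3 with 40.3% [35.2–45.5] and 31.1% [26.4–36.2]. Klra1 was held by fewer cells, 18.9% [15–23.3] and 18.3% [14.5–22.7]. The order Klra7, Klra9, Klra3, Klra1 was the same in both genotypes. The intervals of neighbors in this order overlapped, except that Klra1 stood below Klra3 without overlap on both plates.

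**Figure D1:**
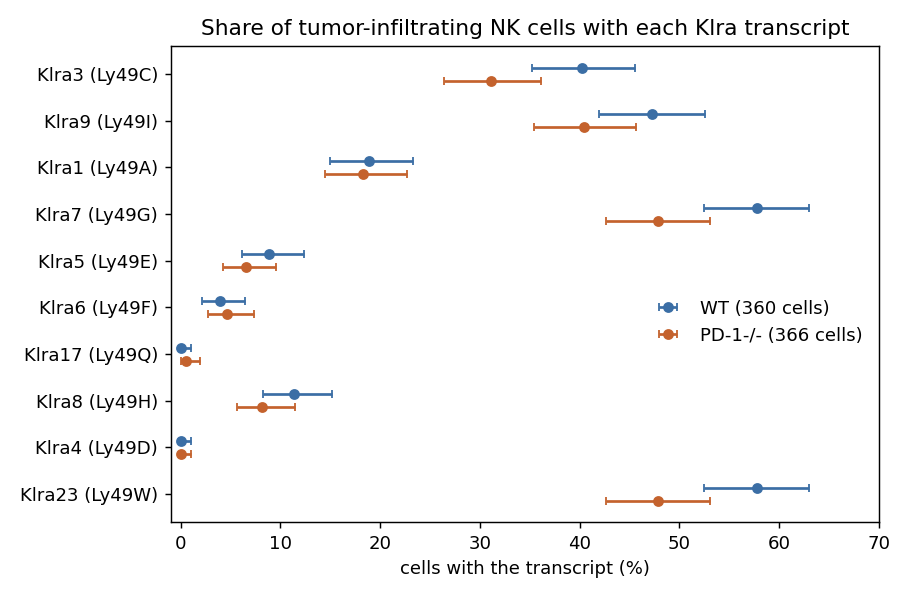
Share of cells (x axis, percent) with each of the 10 Klra transcripts in WT and PD-1-/- NK cells, with exact binomial 95% intervals. Klra7, Klra23, Klra9 and Klra3 lie highest, the PD-1-/- points of these 4 lie left of the WT points with overlapping intervals, and Klra4 was listed at 0 in every well.

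In the cells that held them, the 4 common inhibitory members were transcribed strongly and over a wide range. Klra7 RPKM had a median of 1099 in WT cells with it (quartiles 471 and 1800, highest 5641) and of 1218 in PD-1-/- cells (522 and 1967, highest 5516). For Klra1 the medians were 548 and 603 RPKM, for Klra3 372.9 and 459, and for Klra9 328.9 and 357.02. Medians of these 4 were higher in PD-1-/- cells, with interquartile ranges that overlapped. Klra5, which encodes the fetal-type receptor Ly49E, was present in 32 WT cells, 8.89% [6.16–12.3], and 24 PD-1-/- cells, 6.56% [4.25–9.60]. Its values fell apart into very low and high ones: 42.9% of the cells with Klra5 had 1 read of it and 55.4% had 10 or more, while 1-read cells made up 5.03% to 11.6% for Klra1, Klra3, Klra7 and Klra9. At 2 or more reads Klra5 remained detected in 4.72% (WT) and 4.10% (PD-1-/-) of cells.

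**Figure D2:**
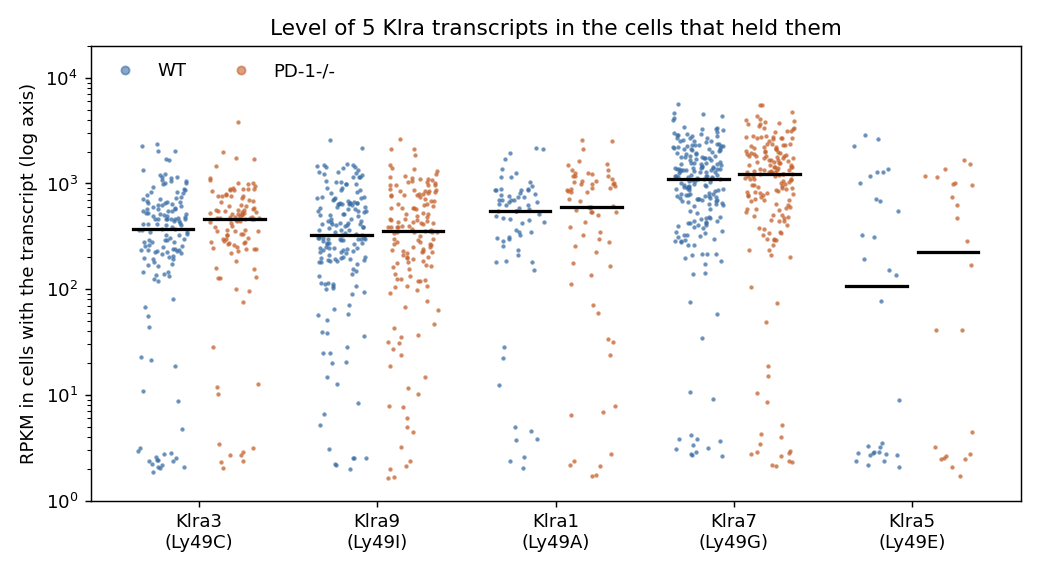
RPKM on a log axis of Klra3, Klra9, Klra1, Klra7 and Klra5 in the WT and PD-1-/- cells that held each transcript, 1 point per cell, with the median as a black bar. Most points of Klra3, Klra9, Klra1 and Klra7 lie above 100 RPKM, and those of Klra5 split into a group of 1-read values at the bottom and a group among the high values.

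The other members were rarer or rested on few counted bases. Klra6 was present in 14 WT cells, 3.89% [2.14–6.44], and 17 PD-1-/- cells, 4.64% [2.73–7.33], with a median of 3 reads. Without cells with CD3 transcripts these shares were 1.69% and 2.47%. Klra17, whose receptor Ly49Q is known from plasmacytoid dendritic and myeloid cells, was found in 0 of 360 WT cells, which allows a share of up to 0.833% by the rule of 3 counts and 1.02% by the exact interval, and in 2 PD-1-/- cells. Klra8, the activating receptor that recognizes a cytomegalovirus protein, was present in 41 WT cells, 11.4% [8.30–15.1], and 30 PD-1-/- cells, 8.20% [5.60–11.5]. When every cell was thinned to 100000 reads these shares were 5.47% and 2.86%, so that its share depends on depth. Klra23 was counted in exactly as many cells as Klra7 on both plates, but not in the same cells: of the cells with Klra7, 65.9% [58.99–72.3] held Klra23 in WT and 60% [52.3–67.3] in PD-1-/-. On the WT plate Klra23 was counted in 48.3% of wells kept from rows A to H but in 67.03% of wells kept from rows I to P, and the cause was not tested.

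Between the genotypes, no member had shares whose intervals did not overlap: 0 of 10 were called lower and 0 higher in PD-1-/-. Among 7066 entries found in at least 10% of cells of either genotype, 0.863% were called lower and 0.75% higher by the same rule. The largest differences, PD-1-/- minus WT, were those of Klra7 at -9.96 percentage points (Newcombe 95% interval -17.1 to -2.70), of Klra23 at the same value, and of Klra3 at -9.13 (-16 to -2.16). Klra9 differed by -6.79 (-13.9 to 0.43), Klra8 by -3.19 (-7.60 to 1.16), and Klra1 by -0.58 (-6.26 to 5.08). The 6 members above the 10% limit had a median difference of -7.96 points, beside a median of -0.13 over all entries. Of all entries, 51.2% were lower in PD-1-/-, so their signed median lies near 0 and gives no spread. The 6 members may also share reads, so these medians do not show a shift of the family. Without cells with CD3 transcripts, 3 members were called lower in PD-1-/-, Klra23 by 12.3 points, Klra3 by 12.3 and Klra7 by 12.1, and 0 higher, where 0.613% of 7011 entries were called lower and 0.571% higher in the same cells. By mean RPKM over all kept cells, 0 of 8 members were lower by a log2 ratio of 0.5 or more and 1 was higher, Klra6 at 0.57, against 16.5% of entries lower and 13.5% higher in the background.

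The PD-1-/- plate held more cells without any of the 10 members. A WT cell held a mean of 2.46 of the 10 members (SD over cells 1.25, highest 7) and a PD-1-/- cell 2.05 (SD 1.36, highest 5), with 2 the median in both. Without Klra23, whose reads were not traced to a gene of the Klra cluster, the means were 1.88 and 1.58. Of the WT cells 22 lacked all 10 members, 6.11% [3.87–9.11], as did 59 PD-1-/- cells, 16.1% [12.5–20.3], so that these intervals did not overlap. Over the 5 members of long counted length the means were 1.73 (SD 0.96) and 1.44 (SD 1.04), and 8.06% [5.46–11.4] of WT and 21% [17–25.6] of PD-1-/- cells had none of the 5. The number of members did not follow the number of detected genes (Pearson's r over cells 0.06 in WT and -0.01 in PD-1-/-), and in 3 bands of detected genes the share without any of the 5 lay between 6.86% and 8.55% in WT and between 20.3% and 21.6% in PD-1-/- cells. The share was thus higher in PD-1-/- cells in each of the 3 bands.

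If each member were switched on independently, the shares alone would set how many cells carry 0, 1 or more of them. For the 5 long members, this product of the shares gave 9.84% of WT cells with none, inside the interval of the 8.06% found, and 36.8% with 2, where 35.6% [30.6–40.7] were found. In PD-1-/- cells it gave 16.3% with none, just below the interval of the 21% found, and 38.3% with 1, above the 31.7% [27–36.7] found. The variance of the number per cell was 0.92 in WT, beside 0.97 under independence, and 1.08 in PD-1-/-, beside 0.92. For all 10 members the variances found were larger than under independence in both genotypes, 1.57 beside 1.35 in WT and 1.84 beside 1.29 in PD-1-/-.

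**Figure D3:**
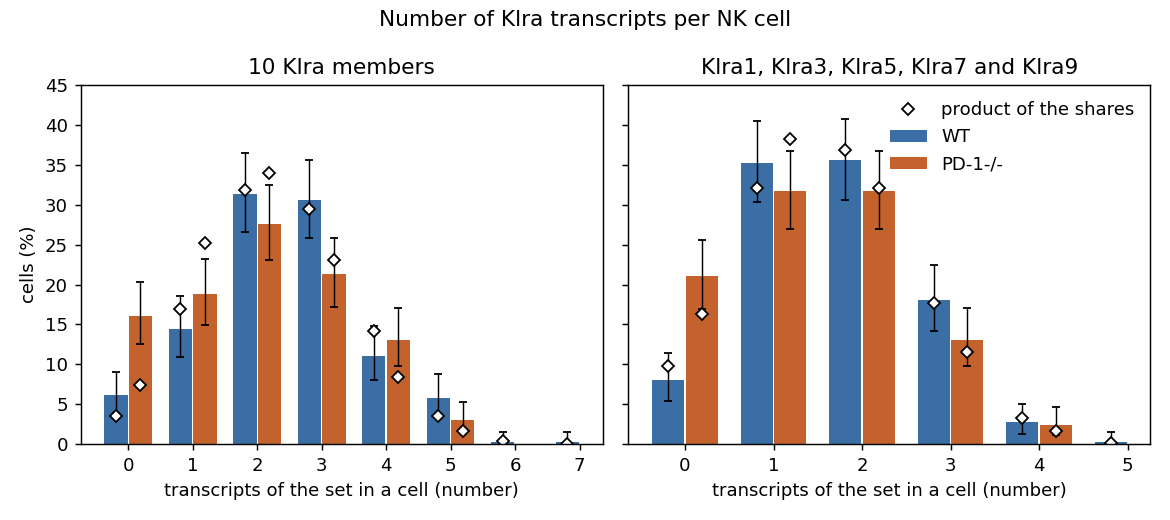
Share of cells (y axis, percent) by the number of Klra transcripts they held, for the 10 members (left) and the 5 of long counted length (right), with exact binomial 95% intervals as error lines and the shares under independence as diamonds. The PD-1-/- bars at 0, 16.1% and 21%, lie above both the WT bars and their own diamonds.

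Which of the 5 a cell combined was compared with independence in the same way. In WT, Klra7 alone was the most frequent state, 59 cells or 16.4% [12.7–20.6], followed by Klra7 with Klra9 in 40 cells, 11.1% [8.06–14.8], and Klra3 with Klra9 in 32 cells, 8.89% [6.16–12.3]. Independence gave 13.5%, 12% and 5.93% for these, and of these 3 only that for Klra3 with Klra9 lay outside the interval found. Some of these 32 cells held 1 of the 2 transcripts near 1 read. In one, Klra3 stood at 1.86 beside Klra9 at 1050.76 RPKM, and in another Klra3 at 666.29 beside Klra9 at 2.16. The 2 genes are the closest pair in sequence, and whether the excess remains without such low values was not tested. In PD-1-/- cells the most frequent state was none of the 5, in 77 cells, followed by Klra7 alone in 44 cells, 12% [8.87–15.8], and Klra7 with Klra9 in 36 cells, 9.84% [6.98–13.4]. Of the cells with Klra7, 28.4% in WT and 25.1% in PD-1-/- had none of the other 4, and of those with Klra5 6.25% and 4.17%. The shares for Klra5 include its 1-read values, 42.9% of the cells with it. Many of these lay beside Klra3 or Klra9, as in a WT cell with Klra5 at 2.38 and Klra3 at 1142 RPKM. The coding sequence of Klra5 is 89.1% identical to that of Klra3 and 90% to that of Klra9. How often Klra5 stood alone without its 1-read values was not tested.

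Pairs of members were called when the product of their shares lay outside the interval of the share of cells with both. This rule is strict, because the interval leaves aside that both single shares come from the same cells. A pair left uncalled was therefore not shown to be independent. Among the 10 pairs of the 5 long members, 0 were called above and 0 below in WT, and likewise 0 and 0 in PD-1-/-. The same rule, applied to these 5 against 6561 other entries in WT, called 0.372% of pairs above and 0.192% below, and against 6527 in PD-1-/- 0.408% above and 0.355% below. Over the 45 pairs of all 10 members, 0 were above and 0 below in WT, with a background of 0.4% above and 0.253% below. In PD-1-/- 3 were above and 0 below, with a background of 0.42% and 0.313%. The 3 were Klra6 with Klra7 (15 cells, 8.13 expected), Klra8 with Klra23 (24 cells, 14.3 expected) and Klra7 with Klra23 (28.7% of cells, 22.9% expected). Each of them involved an entry of short counted length, and taking the product within bands of detected genes left the count at 3.

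Some uncalled pairs leaned the same way in both genotypes. Klra1 was present in 23.6% [18–29.9] of WT cells with Klra7 and 12.5% [7.70–18.8] of those without, and in 24% [17.9–31] and 13.1% [8.65–18.7] of PD-1-/- cells. Klra1 and Klra3 were found together in 21 WT cells where 27.4 were expected and 14 PD-1-/- cells where 20.9 were expected. Klra3 and Klra9, the H2-Kb-binding members with the most similar sequences, were found together in 77 WT cells where 68.5 were expected. In PD-1-/- they were found together in 55 cells where 46.1 were expected. Part of these cells held Klra3 at a value near 1 read beside a high Klra9. Examples are 2.17 beside 657.79 RPKM in a WT cell and 3.12 beside 1382.83 RPKM in a PD-1-/- cell. Whether the lean of this pair remains without such low values was not tested, so it does not show that both genes were expressed together. Klra3 was present in 33.2% [26.8–40.02] of WT cells with Klra7 and 50% [41.8–58.2] of those without it, while in PD-1-/- cells these shares were 30.9% [24.1–38.3] and 31.4% [24.9–38.5]. In WT these intervals did not overlap, although the pair was not called. The difference between the genotypes was not tested.

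**Figure D4:**
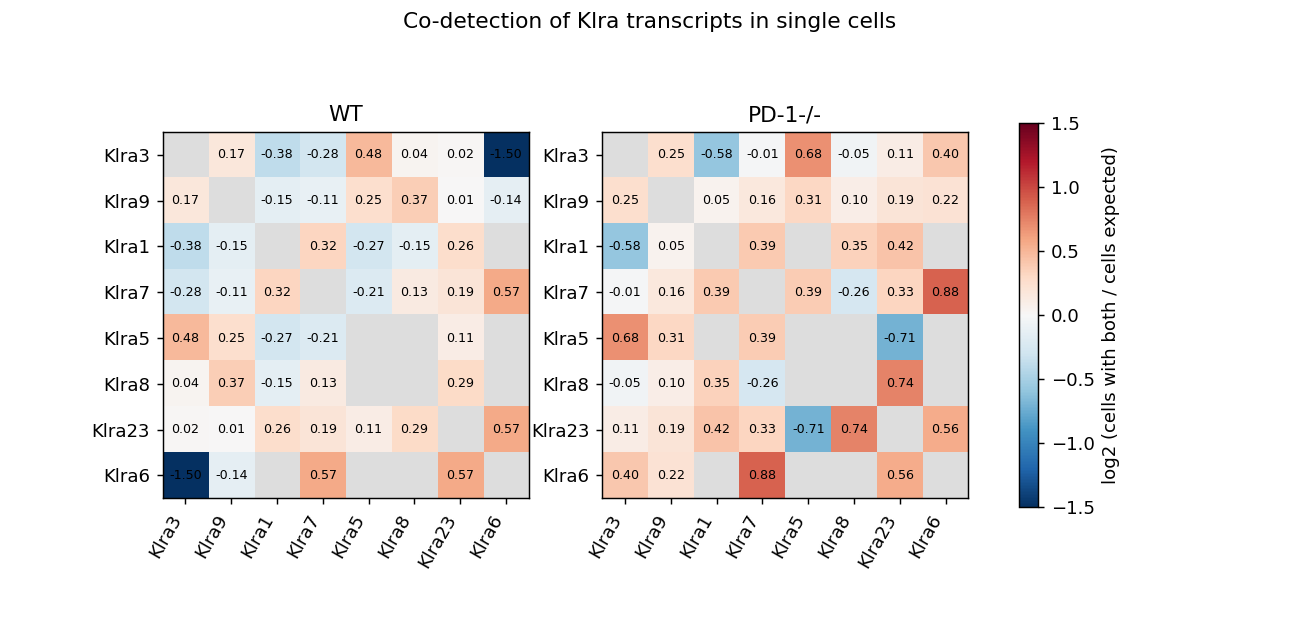
Log2 ratio of cells with both transcripts to the cells expected from the product of the shares, for pairs of 8 Klra members in WT (left) and PD-1-/- (right) cells, with the diagonal and pairs under 5 expected cells in gray. Klra7 with Klra1 is above 0 in both (0.32 and 0.39) and Klra1 with Klra3 below 0 in both (-0.38 and -0.58), and the 3 pairs called above expectation in PD-1-/- stand at 0.88, 0.74 and 0.33.

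Entries of the family that are no members showed closer ties. Klra19 was present in 5 WT and 7 PD-1-/- cells, and 3 and 7 of these also held Klra6. Of the cells with the pseudogene Klra13-ps, all but 1 in either genotype also held Klra23. Of those with Klra18, 82.1% and 81.8% held Klra23, and of those with Klra8, 26 of 41 in WT and 22 of 30 in PD-1-/- held Klra21. RefSeq lists Ly49r and Ly49u of another mouse strain, which are the letters of Klra18 and Klra21, as synonyms of Klra4 and Klra8. Their estimated counted lengths were 272.96 bases for Klra18, 12.04 for Klra19, 9.04 for Klra21 and 7.02 for Klra13-ps. The ratio of RPKM between entries was also followed from cell to cell: the SD of its log2 was at least 1.08 over the pairs with 10 or more cells holding both, so none of these pairs held a fixed multiple. Pairs with fewer such cells, Klra6 with Klra19 among them, were not compared in this way. Entries with few reads per cell, such as Klra13-ps (median 2 reads) and Klra21 (median 3), could hardly show a fixed multiple. Klra18 was the entry with the largest difference of the 20 between the genotypes, 45% [39.8–50.3] in WT and 30.1% [25.4–35] in PD-1-/- cells, with intervals that did not overlap. The same held for the pseudogene Klra14-ps at 66.1% [61–71] and 53.8% [48.6–59]. Over 7066 entries, 0.863% were called lower by this rule. These entries were described because they carry the same name, and no reading of which gene their reads came from was tested.

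The other class I receptors of NK cells are the NKG2 proteins, which pair with CD94 (Klrd1) and bind Qa-1. Klrc1, the gene of the inhibitory receptor NKG2A, stood opposite to the Ly49 transcripts. All 29 WT cells without any of the 5 long members held Klrc1 [88.1–100], as did 71 of the 77 such PD-1-/- cells, 92.2% [83.8–97.1]. With 1 of the 5 the share was 55.9% [46.8–64.7] in WT and 71.6% [62.4–79.5] in PD-1-/-, with 2 it was 52.3% [43.3–61.2] and 53.4% [44–62.8], and with 3 or more 44.7% [33.3–56.6] and 52.6% [39–66]. In WT the share at 0 stood above all others with no overlap of the intervals, and in PD-1-/- likewise. Among cells without Cxcr6 it was 21 of 21 in WT, again without overlap, and 42 of 48 in PD-1-/-, 87.5% [74.8–95.3], where the interval overlapped that at 1, 67.7% [57.5–76.7]. Across 10 other settings of detection, cells and depth, the share of Klrc1 among cells without any of the 5 lay between 85% and 100% in WT and between 87.2% and 97.4% in PD-1-/-. Among cells with at least 1 of the 5 it lay between 47.96% and 55.5% and between 55.96% and 60.9%. Grouping the cells by the number of the 5 was chosen after these values were seen.

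**Figure D5:**
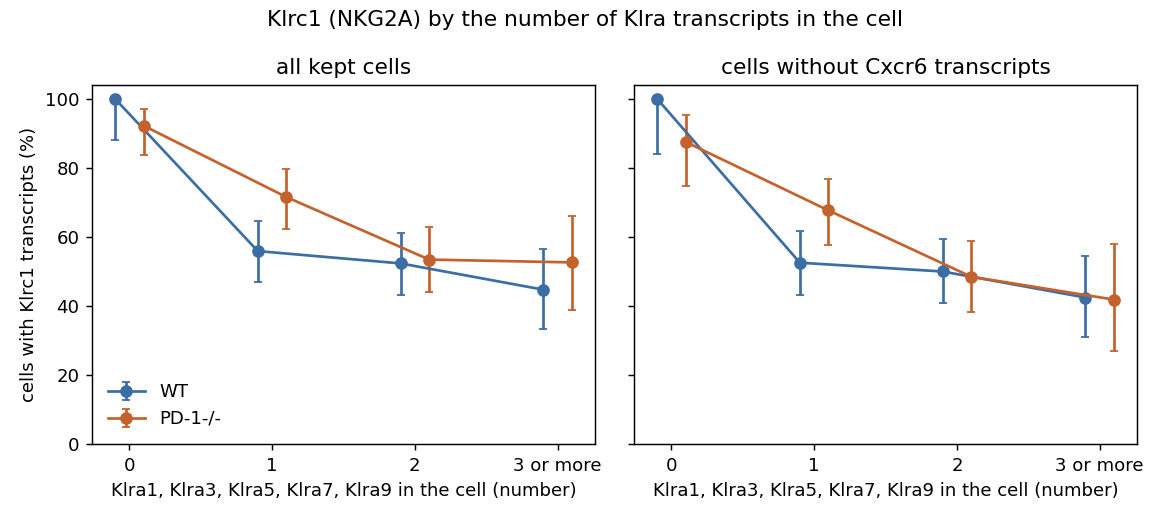
Share of cells with Klrc1 transcripts (y axis, percent) by how many of Klra1, Klra3, Klra5, Klra7 and Klra9 the cell held, in all kept cells (left) and in cells without Cxcr6 (right), with exact binomial 95% intervals. At 0 the share was 100% in WT in both panels, and 92.2% and 87.5% in PD-1-/- cells, and it was lower at 1 and more.

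Taken by receptors for class I molecules of the host, Klra3 or Klra9 was present in 66.1% [61–71] of WT against 56.6% [51.3–61.7] of PD-1-/- cells. Klra3, Klra9 or Klrc1 was present in 89.4% [85.8–92.4] and 90.4% [87–93.2]. A cell with none of the 5 and no Klrc1 was found 0 times in 360 WT cells, which allows a share of up to 0.833% by 3 counts and 1.02% by the exact interval, and 6 times in PD-1-/- cells, 1.64% [0.60–3.53]. Klrc1 was itself more widespread in PD-1-/- cells, 67.2% [62.1–72] beside 55.8% [50.5–61] in WT.

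Of the pairs of 8 NKG2, CD94 and related genes with members, 2 of 64 were called above and 3 below in WT. In PD-1-/-, 2 of 72 were called above and 2 below. The background was 0.4% above and 0.253% below in WT and 0.42% and 0.313% in PD-1-/-. It came from entries found in 10% to 90% of cells. Klrd1 (97.8% of WT and 97.3% of PD-1-/- cells), Klrk1 (96.7% and 98.4%) and Klre1 (95% and 94.5%) lay above that range. Klri1 (6.11% and 8.74%) lay below it. Among the called pairs, Klra9 and Klra23 were called with Klrc1 in both genotypes. Klra9 was present in 38.8% of WT cells with Klrc1 and 57.9% of those without, and in 32.9% and 55.8% of PD-1-/- cells, called below expectation in both. Klra23 was called below with Klrc1 in both as well, at 45.8% and 72.96% in WT and 38.2% and 67.5% in PD-1-/- cells. Klrc2, the gene of the activating NKG2C, leaned the other way: Klra9 was present in 50% of PD-1-/- cells with Klrc2 and 28.9% of those without, called above, and Klra23 in 68.3% and 44.7% of WT cells, also called above. The other calls were Klra23 above expectation with Klri2 in both genotypes and Klra8 below with Klrc1 in WT. Klrc1 also had the lowest Spearman correlation with the number of the 10 members among 6200 compared entries, -0.34 in WT and -0.41 in PD-1-/- cells, followed by Cd226 (-0.21 and -0.29), S100a4 (-0.19 and -0.31), Thy1 (-0.18 and -0.22) and Gna15 (-0.17 and -0.16). At the other end stood Klrc2 (0.25 and 0.28), Klri2 (0.18 and 0.19), Gzma (0.18 and 0.26) and 1810006J02Rik (0.18 and 0.17), over all kept cells, which share a plate and a pool within each genotype. For the 5 long members alone, Gzma, the gene of granzyme A, led with 0.19 and 0.24. Klrc1 was lowest there too, at -0.20 and -0.33, with Gna15 next at -0.14 and -0.17, while Cd226, S100a4 and Thy1 were not among the 5 lowest.

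The remaining lists gave few calls with the members. Of the genes for adaptors and phosphatases through which Ly49 receptors signal (Tyrobp, Hcst, Fcer1g, Syk, Zap70, Ptpn6, Ptpn11 and Inpp5d), 0 of 56 pairs with members were called in WT and 0 of 72 in PD-1-/-. The class I genes and helpers of the host (H2-K1, H2-D1, B2m, Tap1 and Tapbp) gave 0 of 32 and 0 of 36. A gene found in nearly every cell can hardly be called by this rule, because the share with both stays close to the product. B2m was in 100% of cells in both genotypes, H2-K1 in 99.7%, and H2-D1 in 99.2% (WT) and 99.7% (PD-1-/-). Fcer1g was in 100% and 99.7%, and Tyrobp in 98.1% and 94.3%. For these genes the lack of calls says little about a link with the members. Among 10 transcription factors, 0 of 80 pairs were called in WT and 1 of 90 in PD-1-/-, Klra23 with Eomes above expectation. Tcf7, whose product TCF-1 is known to act on Ly49A expression, was uncalled with Klra1, which was present in 23.6% [17.8–30.2] of WT cells with Tcf7 and 13.3% [8.55–19.5] of those without, and in 24.6% [17.8–32.6] and 14.3% [9.98–19.6] of PD-1-/- cells. Tcf7 was also the only gene of these 5 lists with a lower share in PD-1-/- by intervals that did not overlap, 38.8% [33.8–44] beside 54.2% [48.9–59.4], and 4 had a higher one: Klrc1, Cxcr6, Itga1 and Pdcd1. By list, these were 1 of 8 NKG2 and CD94 genes higher, 0 of 8 and 0 of 5 for the adaptors and the class I genes, 1 of 10 transcription factors lower, and 3 of 10 genes of maturation and residency higher. Over 7066 entries found in at least 10% of cells of either genotype, 0.863% were called lower and 0.75% higher. Pdcd1 is the altered gene itself, and its mean was 14.4 RPKM in WT and 13.9 in PD-1-/- cells.

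The list of maturation and residency gave most calls, 1 of 80 pairs above and 6 below in WT, and 3 of 90 above and 9 below in PD-1-/-. The background was 0.4% above and 0.253% below in WT and 0.42% and 0.313% in PD-1-/-, from entries found in 10% to 90% of cells. Cxcr6 (7.78% of WT cells), Il7r (9.72% of WT and 8.20% of PD-1-/- cells) and Pdcd1 (2.5% of WT cells) lay below that range. The list was chosen with earlier results of these data known. Klra23, whose reads were not traced to a gene of the Klra cluster, took part in 3 of the 6 and in 5 of the 9 calls below. It was below with Cxcr6 and Itga1, which mark tissue-resident lymphocytes, in both genotypes, with Il7r in WT, and with Tnfsf10, Klrg1 and Pdcd1 in PD-1-/-. Of the 5 long members, Klra3 was called below with Cxcr6 and Klra9 below with Il7r in WT, and Klra1 below with Itgam and Klra9 below with Tnfsf10 in PD-1-/-. Klra8 was called above with S1pr5 and Itga2 in PD-1-/-, both of which mark conventional circulating NK cells. Cells with Cxcr6, a chemokine receptor of tissue-resident lymphocytes, numbered 28 in WT, 7.78% [5.23–11], and 77 in PD-1-/-, 21% [17–25.6] of cells. They held a mean of 1.54 (SD 1.32) of the 10 members in WT and 1.58 (SD 1.51) in PD-1-/-, whereas cells without Cxcr6 held 2.54 (SD 1.22) and 2.18 (SD 1.29). No member was found in 28.6% [13.2–48.7] and 35.1% [24.5–46.8] of the cells with Cxcr6. Of cells without Cxcr6, 4.22% [2.32–6.97] in WT and 11.1% [7.70–15.3] in PD-1-/- had no member, so the intervals of the genotypes did not overlap among these cells either. Over the 5 long members these shares were 6.33% [3.96–9.51] and 16.6% [12.5–21.4].

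The members did not follow Cxcr6 alike. Klra3 was present in 4 of 28 WT cells with Cxcr6, 14.3% [4.03–32.7], and 42.5% [37.1–48] of those without, called below, and in 23.4% [14.5–34.4] and 33.2% [27.8–39] of PD-1-/- cells. Klra1 had close shares, with 17.9% [6.06–36.9] and 19% [14.9–23.6] in WT and 18.2% [10.3–28.6] and 18.3% [14–23.3] in PD-1-/- cells. Klra5 leaned to cells with Cxcr6, at 15.6% [8.32–25.6] beside 4.15% [2.16–7.14] in PD-1-/-, called above, and 14.3% [4.03–32.7] beside 8.43% [5.68–12] in WT. Cells with Cxcr6 held Klra8 in 0 of 28 cases in WT and 2 of 77 in PD-1-/-, beside 12.3% [9.01–16.4] and 9.69% [6.53–13.7] of cells without Cxcr6.

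Cells with CD3 transcripts held Ly49 transcripts too. Their mean number of members was 2.28 (SD 1.21) in WT and 2.41 (SD 1.33) in PD-1-/-, beside 2.50 (SD 1.26) and 1.95 (SD 1.35) in cells without. With these cells left out, 6.44% [3.92–9.88] of WT and 17.7% [13.4–22.6] of PD-1-/- cells had no member. Klra6 was present in 13.8% [6.53–24.7] of WT cells with CD3 transcripts and 1.69% [0.55–3.91] of those without, and in 12.05% [5.93–21.04] and 2.47% [1.0–5.03] in PD-1-/-. Higher shares with CD3 transcripts, by intervals that did not overlap, were also seen in PD-1-/- for Klra1, at 34.9% [24.8–46.2] and 13.4% [9.68–17.96], and for Klra7, at 61.4% [50.1–71.9] and 43.8% [37.95–49.8]. Lower ones were seen in WT for Klra3, at 24.6% [14.8–36.9] and 43.7% [37.99–49.6], and for Klra9, at 30.8% [19.9–43.4] and 50.8% [44.99–56.7]. The entry most alike to Klra6 in detection was Cd3g, with a phi, the correlation of presence over cells, of 0.24 in WT and 0.26 in PD-1-/-. For the other members phi lay between 0.10 and 0.27 with Tbrg1 for Klra1, Rbm14 for Klra3, Lrrc59 for Klra5, Cst7 for Klra7, Gzma for Klra9, Arhgap17 for Klra8 and Klri2 for Klra23, each the highest of 6200 entries by the lower of both genotypes.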

How the data were processed

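The NK cells came from the pooled tumors of 3 mice per genotype, were sorted on surface markers and were sequenced by SMART-SEQ2, which reads whole transcripts without molecular identifiers. The labels give 382 sorted cells, and the deposited tables hold 768 wells on 2 plates, 1 plate per genotype. The authors deposited RPKM per gene entry and well. The submitters' processing notes name TopHat, Cufflinks and the builds mm9 and mm10 without versions or roles, the annotation is not given in the sources used here, and how reads shared by Klra genes were assigned is unknown.

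Any RPKM above 0 counted as detection of a transcript. Genes above 0 in at least 3 wells (14761) were counted to keep cells, and no caller of doublets was run. Since the RPKM of an entry rises by an equal amount per read, numbers of reads could be worked back from it: for 9342 entries, 99.6% of 667464 values below 60 reads came out whole, within 0.03% of the value or 0.001 reads. Recovered reads served for depth, for thinning and for the counted length, which was scaled on 862 GENCODE genes with 1 transcript (quartiles of the ratio 0.91 and 1.00). Of the values of Klra7, only 9.80% were whole multiples, within 0.01, of the value taken for 1 read (its most frequent), so its numbers of reads are approximate. Cells with under 100000 recovered reads, 31 in WT and 16 in PD-1-/-, were left out of thinning.

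No test or p-value was computed, since each genotype is 1 sample. Shares carry exact binomial 95% intervals, differences Newcombe intervals, and log2 ratios a pseudocount of 1 RPKM. Expected co-detection was the product of the shares, and pairs with other entries used those found in 10% to 90% of cells. Named genes were the members, all deposited Klra symbols, 5 lists (NKG2 and CD94, adaptors and phosphatases, class I, transcription factors, maturation and residency), the entry most alike to each member with at least 10 cells, and the 5 highest and 5 lowest correlates of the number of members, of which 1 is not reported here. The members and lists were chosen with earlier results of these data known. Alternatives changed detection (1 or 10 RPKM, 2 reads), cells (all wells, 1500 to 3000 genes, no CD3 transcripts), plate rows, depth, entries counted, pseudocount and scale. Scripts were tested on simulated data. Python 3.11.15, numpy 2.4.6, pandas 2.3.3, scipy 1.17.1 and matplotlib 3.10.9 were used.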

Additional observations from a re-analysis of the deposited data

How the results depend on the processing

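Taken over all cells of a setting, the direction of the genotype difference in the mean number of members, and in the share of cells without any, was the same under every alternative run. Within 2 subsets of cells the direction of the mean changed with the setting. Cells with CD3 transcripts held 2.28 in WT and 2.41 in PD-1-/- in the values reported, and 2.28 and 2.21 when thinned. Cells with Cxcr6 held 1.54 and 1.58 in the values reported, with the order reversed when thinned. The mean number per cell was 2.29 in WT and 1.91 in PD-1-/- at 10 RPKM or more, 2.29 and 1.87 when thinned to 100000 reads, 2.19 and 1.86 at 2 or more reads, 1.88 and 1.58 without Klra23, and 1.73 and 1.44 over the 5 long members. Cells without any member rose to 9.17% of WT at 2 or more reads and to 21% of PD-1-/- cells over the 5 long members. Over those 5, cells with CD3 transcripts held 1.65 in WT and 1.76 in PD-1-/-, and cells without them 1.75 and 1.35. Cells with Cxcr6 held 1.21 in WT and 1.25 in PD-1-/- of those 5, and cells without Cxcr6 1.77 and 1.49. Thinned, cells without CD3 transcripts held 2.30 in WT and 1.79 in PD-1-/-, cells without Cxcr6 2.34 and 2.01, and cells with Cxcr6 1.57 and 1.29. At 10 RPKM or more, WT cells without CD3 transcripts held 2.32 and those without Cxcr6 2.36. WT cells with Cxcr6 held 1.07 in rows C to P, for a reason not tested.

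Member pairs above expectation in PD-1-/-, 3 in the values reported, numbered 0 in rows A to H and over the 5 long members, and 1 in rows I to P, when thinned and without Klra23. In WT they numbered 1 in all wells, in rows I to P and at 2 or more reads. In PD-1-/- 1 pair was below expectation without cells with CD3 transcripts. Members lower in PD-1-/- by intervals that did not overlap numbered 3 without cells with CD3 transcripts, 2 in rows C to P (Klra7 and Klra23), and 1 in rows I to P and when thinned (Klra23). Without cells with CD3 transcripts, 0.613% of 7011 entries were called lower. For plate rows, all wells, thinning and 2 or more reads no such share was worked out, for members or for pairs. The counts under those settings therefore cannot be weighed against all entries. The cause of these changes in the counts was not tested. Rows C to P, 2 or more reads and the 5 long members were chosen after seeing the data. Of the values for single members, 20 moved by more than their spread, most of them for Klra5, Klra6 and Klra8. No Klra entries were merged. No pair with 10 or more cells holding both kept a fixed ratio, but entries with few reads per cell could hardly show one. Reads shared between entries may therefore remain in the number of members per cell. Detection of Klra8 and Klra6 was limited by depth, and the other Klra genes' reads may have been split by the counting. No paired analysis was possible because each genotype is 1 pool on 1 plate, and the numbers in the labels only name wells.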
